A study of Mus musculus with 4 samples.

Results

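Macrophage identity and C1q genes were taken as every array probe whose platform annotation names 1 of 10 genes: Csf1r, Adgre1, Cd68, Lyz2, C1qa, C1qb, C1qc, Fcer1g, Tyrobp and Itgam. Of these, 8 genes had probes, 11 probes among the 46632 of the table, and no probe was annotated to Csf1r or Cd68, which are not analysed here. The tumours were grown under the abdominal skin from the mouse melanoma line B16-F10-luc-G5, which carries luciferase, and were removed at day 10 from 2 VAP-1 knockout hosts (VAP-1 -/-, replicates 1 and 2) and 2 wild-type hosts (replicates 2 and 3), with 1 Illumina array per tumour. VAP-1, encoded by Aoc3, is an amine oxidase of vessel walls that takes part in the entry of leukocytes into tissue. All hosts received the same melanoma line, so the knockout concerns host cells and not the injected cells. The labels do not state the strain, age or sex of the hosts.

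Macrophages arise from monocytes or from tissue-resident precursors and depend on signals through the receptor encoded by Csf1r, whose ligands are CSF1 and IL-34. They clear dead cells and immune complexes, and in tumours they are known as an abundant host cell type. They also make C1q, the recognition unit of the classical complement pathway, which is assembled from A, B and C chains encoded by neighbouring genes. Tyrobp and Fcer1g encode small adaptors that carry an immunoreceptor tyrosine-based activation motif (ITAM) and pass signals from many surface receptors to the kinase Syk. Lyz2, Itgam, Fcer1g and Tyrobp are also expressed by neutrophils, so they mark myeloid cells more broadly than Adgre1 or the C1q genes.

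The C1q genes lie next to each other on mouse chromosome 4 (GRCm38.p6), C1qb at chr4:136880126-136886200, C1qc at chr4:136889801-136892936 and C1qa at chr4:136895916-136898844. The gaps between them are 3600 and 2979 bases. Of the 8 measured genes, 5 had an upstream sequence in the RefSeq table (GRCm38.p6), namely C1qb, C1qc, Lyz2, Fcer1g and Itgam. The 250 bases before the start that this table uses are shown for C1qb and C1qc, neighbours that encode chains of the same protein, and for Lyz2, the member with the widest difference between the groups. All 3 are on the minus strand and read 5′ to 3′. Capitals mark the letters GAGGAA (the PU box) or AGGAAG on either strand, forms that can overlap and that resemble the binding motif of PU.1, a transcription factor of myeloid cells. C1qb covers chr4:136886201-136886450, C1qc chr4:136892915-136893164 and Lyz2 chr10:117282273-117282522. The promoter table uses a start for C1qc that lies inside the gene span given above, so 22 of the 250 bases shown for C1qc fall within that span.
C1qb: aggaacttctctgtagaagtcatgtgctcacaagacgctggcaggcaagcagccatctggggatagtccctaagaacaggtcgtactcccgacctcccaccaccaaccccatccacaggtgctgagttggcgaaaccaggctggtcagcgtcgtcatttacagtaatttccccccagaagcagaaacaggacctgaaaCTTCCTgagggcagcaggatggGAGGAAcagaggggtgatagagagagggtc
C1qc: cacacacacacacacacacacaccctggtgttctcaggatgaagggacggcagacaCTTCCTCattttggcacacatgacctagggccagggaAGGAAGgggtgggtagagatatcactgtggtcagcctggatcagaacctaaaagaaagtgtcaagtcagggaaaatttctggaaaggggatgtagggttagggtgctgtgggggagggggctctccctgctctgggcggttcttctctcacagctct
Lyz2: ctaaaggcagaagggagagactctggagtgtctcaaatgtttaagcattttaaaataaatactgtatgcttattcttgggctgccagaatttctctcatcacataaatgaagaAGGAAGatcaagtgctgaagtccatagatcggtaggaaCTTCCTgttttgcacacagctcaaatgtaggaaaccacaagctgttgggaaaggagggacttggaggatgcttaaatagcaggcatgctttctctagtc
Counted back from the table's start, C1qb held GAGGAA from 30 to 25 bases before it, C1qc from 193 to 188 on the opposite strand, and Lyz2 held AGGAAG at 2 places. GAGGAA was found upstream of 3 of the 5 genes and of 23.1% of 27025 genes with a window of that length, and AGGAAG upstream of 5 of the 5 and of 29.2%. These matches describe letters and not binding sites.

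Values are log2 of the authors' quantile-normalized probe intensity. Differences are knockout minus wild type, with the standard error (SE) and 95% interval of a limma fit over the 27979 probes whose mean lay above the 40th percentile (5.88 on the log2 scale, the filter level). A probe close to that level has little signal over background. Which of 2 genes was more abundant is not read from their probes, because probes differ in how well they bind. Unnormalized array medians were 64.8 and 68.3 for the knockout and 63.3 and 55.3 for wild type. After the authors' normalization the knockout arrays were closest to each other (SD of the log2 difference over probes 0.258), while the wild-type arrays lay 0.416 apart. Wild-type replicate 3 was as near to knockout replicate 2 (0.410), so the wild-type arrays did not form a pair of their own. Over the 8 tested member probes wild-type replicate 3 was nearer to the knockout arrays (0.286 and 0.276) than to wild-type replicate 2 (0.542). The last distance rested largely on 1 probe, Lyz2, at which the wild-type arrays differed by 1.30. It therefore does not place the members as a group nearer to the knockout. At an adjusted p under 0.05, 0 of the 27979 probes were called (0%), and the smallest adjusted p was 0.0976. An unadjusted p under 0.05 was reached by 4568 probes (16.3%), with 9.27% higher and 7.05% lower in the knockout. Under median scaling of the unnormalized table these shares were 13.4% higher and 0.443% lower, and under 75th percentile scaling 8.05% and 5.97%. With trend and robust moderation, 4 were called. The brighter Aoc3 probe had 7.21 and 7.07 on the knockout arrays, against 7.96 and 7.09 on the wild-type arrays. Its difference of -0.39 ± 0.31 (SE, n = 2 each) was within the replicate spread (limma adjusted p = 0.597) and was 0.047 without wild-type replicate 2. Without wild-type replicate 3 it was -0.83 (limma adjusted p = 0.0483). A fit with a wild-type array left out has 1 wild-type array, which is assumed to vary like the knockout pair, and that pair, the closer one, alone supplies the spread. The p-values below from such fits are given with this limit and not as calls. The arrays are therefore named by their labels only. A second Aoc3 probe, close to the filter level, read 5.78 and 5.99 in the knockout, against 5.98 and 5.91 in wild type, with overlap. Its difference was -0.06 ± 0.13 (SE, limma adjusted p = 0.861). The position of either probe in the deleted gene is not stated in the sources used here.

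Of the 11 member probes, 8 probes of 7 genes lay above the filter level and were tested. None was called: 0 of 8 passed after adjustment (0% of all probes), and C1qa alone had an unadjusted p under 0.05, 1 lower and 0 higher, where 7.05% and 9.27% of all probes had one. The groups did not overlap for 4 of the 8, of which 2 were higher in the knockout (Lyz2 and C1qb) and 2 lower (C1qa and one Adgre1 probe). Among all probes in the fit, 49.2% did not overlap, 23.6% higher and 25.6% lower, so the share among the members was near the background. The median difference over the 8 probes was -0.13, beside -0.02 over all probes. In whole tumours, fewer macrophages and less RNA per macrophage cannot be told apart.

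**Figure D1:**
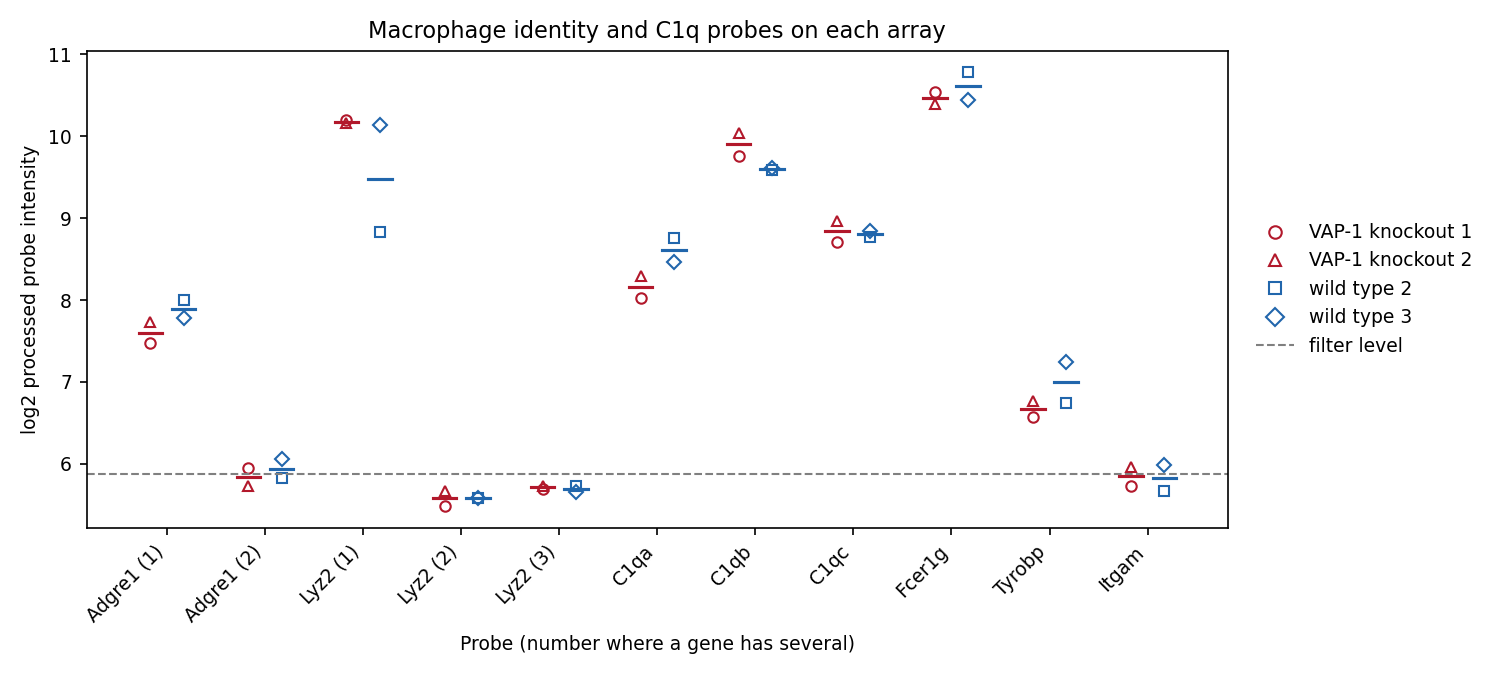
The log2 processed intensity of each of the 11 member probes (horizontal axis) is plotted for each array, VAP-1 knockout in red on the left and wild type in blue on the right, with bars at the group means and the filter level of 5.88 as a dashed line. Lyz2 (1) in wild-type replicate 2, at 8.83, stands apart from the other 3 arrays, which lie between 10.13 and 10.19.

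Adgre1 encodes F4/80, a surface receptor widely used to mark mouse macrophages. Its first probe read 7.47 and 7.73 in the knockout tumours, against 8.001 and 7.782 in the wild-type tumours. Both knockout values were below both wild-type values, although knockout replicate 2 lay only 0.05 below wild-type replicate 3. The difference was -0.29 ± 0.16 (SE, n = 2 each, 95% interval -0.70 to 0.12), with limma adjusted p = 0.449. Under median scaling of the unnormalized table it was 0.092. A second Adgre1 probe close to the filter level gave 5.95 and 5.73 in the knockout, against 5.83 and 6.06 in wild type, and the groups overlapped. Its difference was -0.10 ± 0.15 (SE, limma adjusted p = 0.78).

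C1qa, which encodes the A chain, was the member with the smallest p. It read 8.03 and 8.30 in the knockout tumours, against 8.76 and 8.46 in the wild-type tumours. The knockout values were both lower, by an average of 1.37-fold. The difference was -0.45 ± 0.17 (SE, n = 2 each, 95% interval -0.90 to -0.0022), with an unadjusted p of 0.0493 and a limma adjusted p of 0.304. Under median scaling it shrank to -0.07 and the groups overlapped, while scaling by the 75th percentile gave -0.27.

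C1qb, for the B chain, went the other way. It read 9.77 and 10.04 in the knockout tumours, against 9.59 and 9.61 in the wild-type tumours. The wild-type values lay within 0.02 of each other and both knockout values were above them. The difference was 0.30 ± 0.14 (SE, n = 2 each, 95% interval -0.07 to 0.67), with limma adjusted p = 0.39. The difference was 0.16 without knockout replicate 2 and 0.54 under median scaling. Under both median and 75th percentile scaling the groups overlapped.

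C1qc, for the C chain, showed no separation. It read 8.71 and 8.97 in the knockout tumours, against 8.77 and 8.84 in the wild-type tumours, so the wild-type values fell between the knockout values. The difference was 0.03 ± 0.14 (SE, n = 2 each, 95% interval -0.34 to 0.40), with limma adjusted p = 0.935. Under median scaling it was 0.36. Over the C1q probes the median difference was 0.03, and none of the 3 passed the test. Knockout replicate 1 was below knockout replicate 2 by a like amount at C1qa (-0.27), C1qb (-0.27) and C1qc (-0.26), and also at the first Adgre1 probe (-0.26) and Tyrobp (-0.20). It was above knockout replicate 2 at the second Adgre1 probe (0.22), Fcer1g (0.16) and Lyz2 (0.04), so the members did not shift together. The wild-type arrays showed no such shared shift, since replicate 2 minus replicate 3 was 0.30 at C1qa, -0.02 at C1qb and -0.07 at C1qc. Summed intensity of 5 keratinocyte markers was 16713 and 6840 on the knockout arrays, against 6174 and 5232 on the wild-type arrays. It was thus highest on knockout replicate 1, and its part in the gap between the knockout arrays was not tested.

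**Figure D2:**
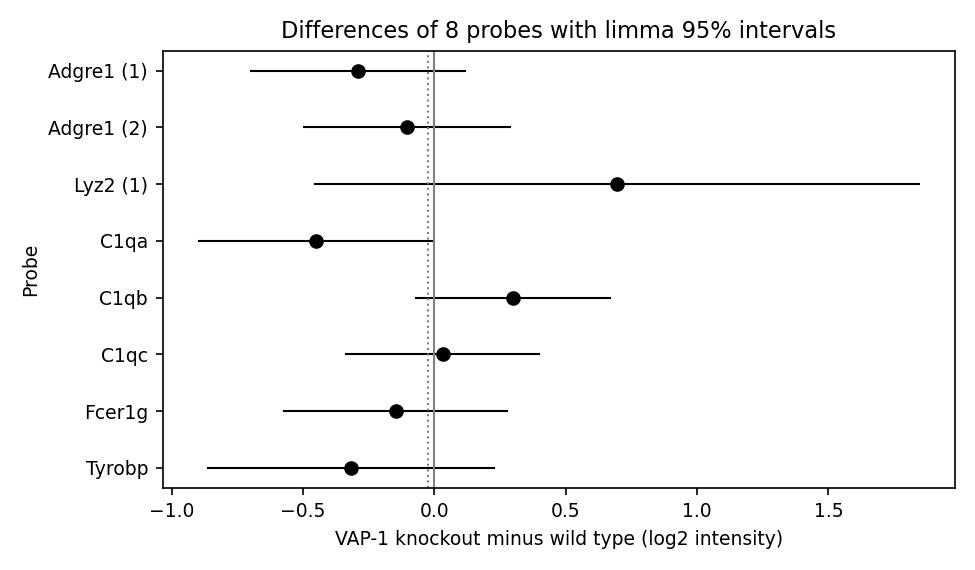
Points give the log2 difference, VAP-1 knockout minus wild type, of the 8 tested member probes, lines give limma 95% intervals, and the dotted line marks the median of all tested probes (-0.02). Only the interval of C1qa, from -0.90 to -0.0022, lies to one side of 0, and Lyz2 has the widest interval, from -0.46 to 1.84.

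Fcer1g encodes the common gamma chain of Fc receptors. It read 10.55 and 10.39 in the knockout tumours, against 10.78 and 10.45 in the wild-type tumours. The groups overlapped, with wild-type replicate 3 between the knockout values. The difference was -0.15 ± 0.16 (SE, n = 2 each, 95% interval -0.57 to 0.28, limma adjusted p = 0.713), with 0.018 after median scaling and 0.019 when wild-type replicate 2 was left out. Tyrobp encodes DAP12, the partner of TREM2 and related receptors. It read 6.58 and 6.77 in the knockout tumours, against 6.74 and 7.25 in the wild-type tumours. Wild-type replicate 3 was the highest array, and wild-type replicate 2 lay within the knockout range. The difference was -0.32 ± 0.21 (SE, n = 2 each, 95% interval -0.86 to 0.23, limma adjusted p = 0.529). Without wild-type replicate 3 it was -0.07, and without wild-type replicate 2 it was -0.57.

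Lyz2 encodes the lysozyme of macrophages and granulocytes, and 1 of its 3 probes lay above the filter level. That probe read 10.19 and 10.16 in the knockout tumours, against 8.83 and 10.13 in the wild-type tumours. Wild-type replicate 2 was low, and the other 3 arrays were nearly level. The unnormalized intensities, before any scaling of the arrays, had the same order of groups, at 1104 and 1509 in the knockout, against 345 and 1088 in wild type. Under both median and 75th percentile scaling the groups overlapped, with wild-type replicate 3 above knockout replicate 1. The difference was 0.69 ± 0.44 (SE, n = 2 each, 95% interval -0.46 to 1.84), with limma adjusted p = 0.517. It rested on wild-type replicate 2: without that array the difference was 0.04. Without wild-type replicate 3, which leaves the low array as the only wild-type one, it was 1.35. The other Lyz2 probes, below the filter level, lay between 5.48 and 5.67 and between 5.70 and 5.73 in the knockout, against 5.58 to 5.59 and 5.66 to 5.72 in wild type. They were not tested and showed no low value in wild-type replicate 2. Lyz1, a close copy of Lyz2, read 6.63 and 6.79 in the knockout, against 6.24 and 6.63 in wild type, also lowest in wild-type replicate 2 (difference 0.27 ± 0.18, limma adjusted p = 0.528). Whether either probe also binds the other transcript was not tested. Lyz1 was singled out after its values were seen.

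Itgam encodes CD11b, the alpha M integrin chain of monocytes, macrophages and neutrophils. Its probe lay below the filter level, at 5.74 and 5.96 in the knockout tumours, against 5.67 and 5.99 in the wild-type tumours. The knockout values fell between the wild-type values, and the mean difference of 0.015 was not tested. Itgb2, which encodes the beta chain that pairs with CD11b, was below the filter level too (5.65 and 6.02 in the knockout, against 5.57 and 5.61 in wild type). So was Ptprc, the pan-leukocyte gene for CD45, at 5.79 and 5.77 in the knockout, against 5.82 and 5.69 in wild type. A probe at this level does not show that the transcript is absent. Itgb2 and Ptprc were named for their role after their values were seen.

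The other genes of these pathways were read from lists, each gene by the probe with the highest mean over the 4 arrays, and 0 genes of any list passed after adjustment. There were 11 measured genes for CSF1 receptor ligands and macrophage transcription factors, all in the fit, with a median difference of 0.19. At an unadjusted p under 0.05, 1 was higher and 0 were lower, where 9.27% of all probes were higher and 7.05% lower. Under median scaling 4 were higher, where 13.4% of all probes were. Under 75th percentile scaling 0 were, where 8.05% of all probes were, and Irf8 had an unadjusted limma p of 0.0519. The filter at the 70th percentile left Irf8 out of the fit, and 0 of the genes it kept were higher. In the processed values the 1 gene was Irf8, a transcription factor of monocytes and dendritic cells, at 6.63 and 6.76 in the knockout, against 6.33 and 6.16 in wild type (0.45 ± 0.13 SE, limma adjusted p = 0.208). The ligand genes did not pass. The brighter Csf1 probe read 6.62 and 6.53 in the knockout, against 6.77 and 6.27 in wild type, with overlap. A dimmer Csf1 probe read 6.24 and 6.09 in the knockout, against 6.08 and 5.86 in wild type, higher without overlap (0.20 ± 0.14 SE, limma adjusted p = 0.551). Il34 differed by 0.16 ± 0.15 (SE). Spi1, which encodes PU.1, read 6.54 and 6.63 in the knockout, against 6.74 and 6.72 in wild type (-0.15 ± 0.11 SE, limma adjusted p = 0.59). Csf1, Il34 and Spi1 were named for their role, after their values were seen.

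Among 15 receptors that pair with Tyrobp or Fcer1g, 11 were in the fit. At an unadjusted p under 0.05, 0 were higher and 1 was lower, where 9.27% of all probes were higher and 7.05% lower. The median difference was -0.14, with 8 lower and 3 higher means. Under median scaling 2 were higher and 0 lower, where 13.4% of all probes were higher and 0.443% lower. In the processed values the lower gene was Clec4n, which encodes dectin-2, a fungal sensor that signals through the Fcer1g chain. It read 7.31 and 7.43 in the knockout, against 7.91 and 8.06 in wild type (-0.61 ± 0.13 SE, limma adjusted p = 0.142). Both knockout arrays were below both wild-type arrays, so leaving out an array could not reverse the sign. The filters and the trend and robust moderation use the same values, so they could not change the difference. The direction held under both background corrections (-0.59 and -0.77) and under 75th percentile scaling (-0.46). It also held under median scaling, where the difference was smallest in size, at -0.26 (limma adjusted p = 0.727). Fcgr4, an activating Fc receptor of monocytes and neutrophils, differed by -0.61 ± 0.24 (SE), and Trem2 by -0.15 ± 0.16 (SE). Both were named for their role after their values were seen.

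Of 11 measured ITAM signalling proteins, 8 were in the fit, with a median of 0.32. At an unadjusted p under 0.05, 1 was higher and 0 lower, where 9.27% of all probes were higher and 7.05% lower. Under median scaling 5 were higher and under 75th percentile scaling 2, where 13.4% and 8.05% of all probes were. In the processed values the higher gene was Btk, a tyrosine kinase of B cells and myeloid cells, at 7.43 and 7.23 in the knockout, against 6.71 and 6.76 in wild type (0.60 ± 0.13 SE, limma adjusted p = 0.148). The brightest probe of Syk, named for its role after its values were seen, lay below the filter level. Of 7 measured classical complement genes, 4 were in the fit and 0 passed in either direction (median 0.09). Of 9 partners and ligands of integrin alpha M, 5 were in the fit (median 0.28). Here 2 were higher and 0 lower, beside the same 9.27% and 7.05% of all probes. Under 75th percentile scaling 1 was higher, where 8.05% of all probes were. With the filter at the 70th percentile 0 were, and that filter left Fermt3 out of the fit. In the processed values the 2 were Tln1, the talin gene, with 8.42 and 8.39 in the knockout, against 7.96 and 8.07 in wild type (0.39 ± 0.12 SE, limma adjusted p = 0.221), and Fermt3, the kindlin gene of blood cells, which differed by 0.31 ± 0.11 (SE, limma adjusted p = 0.279). Talin and kindlin activate integrins from the cytoplasmic side.

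Of 24 other macrophage genes, 21 were in the fit (median 0.10). At an unadjusted p under 0.05, 2 were higher and 1 lower, where 9.27% of all probes were higher and 7.05% lower. Under median scaling 4 were higher, where 13.4% of all probes were. In the processed values the genes were as follows. The lower gene was Cd14, the endotoxin co-receptor, at 6.31 and 6.57 in the knockout, against 7.20 and 7.43 in wild type (-0.87 ± 0.16 SE, limma adjusted p = 0.132). Without wild-type replicate 2 the limma adjusted p was 0.0376, on the spread of the knockout pair alone. The higher genes were Cd74 and Siglec1. Cd74, the invariant chain of MHC class II molecules, read 10.13 and 9.72 in the knockout, against 9.32 and 8.64 in wild type (0.94 ± 0.28 SE, limma adjusted p = 0.219), and without wild-type replicate 2 the limma adjusted p was 0.0351, on the same limited spread. Siglec1, the sialoadhesin of resident macrophages, differed by 0.33 ± 0.12 (SE, limma adjusted p = 0.269). Thus genes counted as macrophage genes lay on both sides of 0, as the members did and as probes in general did.

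**Figure D3:**
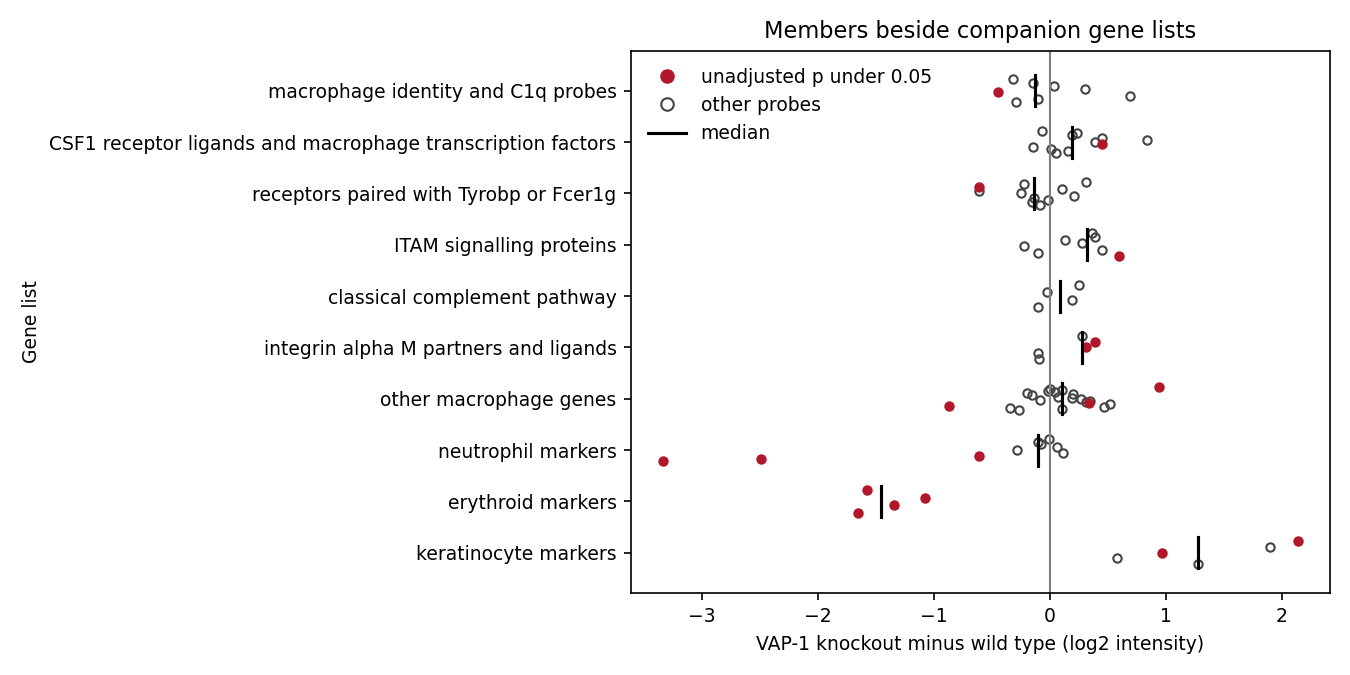
Each point is a tested probe, placed by its log2 difference, VAP-1 knockout minus wild type, for the 8 member probes (top) and for companion gene lists, filled where the unadjusted p was under 0.05, with a bar at each list's median. The member median of -0.13 lies near that of the receptors paired with Tyrobp or Fcer1g (-0.14). It lies below the medians of the other macrophage-related lists (0.09 to 0.32), and 4 of 4 erythroid genes lie below 0.

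Markers of other cells were read on the same arrays. All 8 melanocyte markers were in the fit, with a median difference of 0.08, and Sox10, a melanocyte transcription factor, differed by 0.84 ± 0.21 (SE, limma adjusted p = 0.172). Of 12 measured neutrophil markers, 9 were in the fit. At an unadjusted p under 0.05, 0 were higher and 3 lower, where 9.27% of all probes were higher and 7.05% lower. The median difference of these markers was -0.10, with 7 lower and 2 higher means. Their summed intensity was 831 and 855 on the knockout arrays, against 2313 and 3529 on the wild-type arrays, and most of the gap came from S100a8, a calprotectin subunit gene (6.99 and 7.69 in the knockout, against 10.32 and 11.03 in wild type, -3.34 ± 0.34 SE, limma adjusted p = 0.0976). S100a9 differed by -2.49 ± 0.39 (SE, limma adjusted p = 0.12) and Camp by -0.61 ± 0.15 (SE, limma adjusted p = 0.177). The markers Ngp and Ltf, named for their role after their values were seen, were below the filter level. Lcn2 (0.12) and Csf3r (0.06) had higher means in the knockout but overlapped, and were singled out after their values were seen. Lcn2 read 7.76 and 6.64 in the knockout, against 7.01 and 7.15 in wild type. Csf3r read 6.37 and 6.34 in the knockout, against 6.49 and 6.10 in wild type. With either one of the wild-type arrays left out, and the spread taken from the knockout pair alone, the limma adjusted p of S100a8 and S100a9 lay between 0.0156 and 0.0241. That of Sox10 was 0.0304 without wild-type replicate 2, on the same limited spread. The part of neutrophil RNA in the values of Fcer1g, Tyrobp and Lyz2 was not tested. All 4 erythroid markers were lower at an unadjusted p under 0.05, where 7.05% of all probes were. Their summed intensities were 34894 and 19883 in the knockout, against 70861 and 65321 in wild type. Hbb-bs differed by -1.66 ± 0.28 (SE), Hbb-bt by -1.34 ± 0.34 (SE), Hba-a1 by -1.08 ± 0.24 (SE) and Alas2 by -1.58 ± 0.51 (SE). The beta-globin genes are nearly identical, and whether their probes separate them was not tested.

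Dendritic cell markers (4 of 6 in the fit), T and NK cell markers (5 of 7 measured), B cell markers (2 of 3) and mast cell markers (3 of 4) had 0 genes past an unadjusted p of 0.05 in either direction. Of all probes in the fit, 16.3% were past that p. The median differences of these lists were -0.10, 0.02, -0.08 and 0.37. Of 5 keratinocyte markers 2 were higher at an unadjusted p under 0.05, where 9.27% of all probes were. These were Krt1, by 0.96 ± 0.30 (SE), and Lor, by 2.14 ± 0.80 (SE). Of 5 skeletal muscle markers 2 were higher, beside the same 9.27% of all probes. These were Atp2a1, by 1.57 ± 0.44 (SE), and Ckm, by 0.60 ± 0.19 (SE). Under median scaling 4 were higher, where 13.4% of all probes were. Summed muscle signal was 5186 and 3505 in the knockout, against 2984 and 2205 in wild type. With knockout replicate 1, the array with the most skin and muscle signal, left out, the tested members differed by -0.16 and -0.21 at the Adgre1 probes, -0.31 at C1qa, 0.44 at C1qb, 0.16 at C1qc, -0.22 at Fcer1g, -0.22 at Tyrobp and 0.68 at Lyz2.

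**Figure D4:**
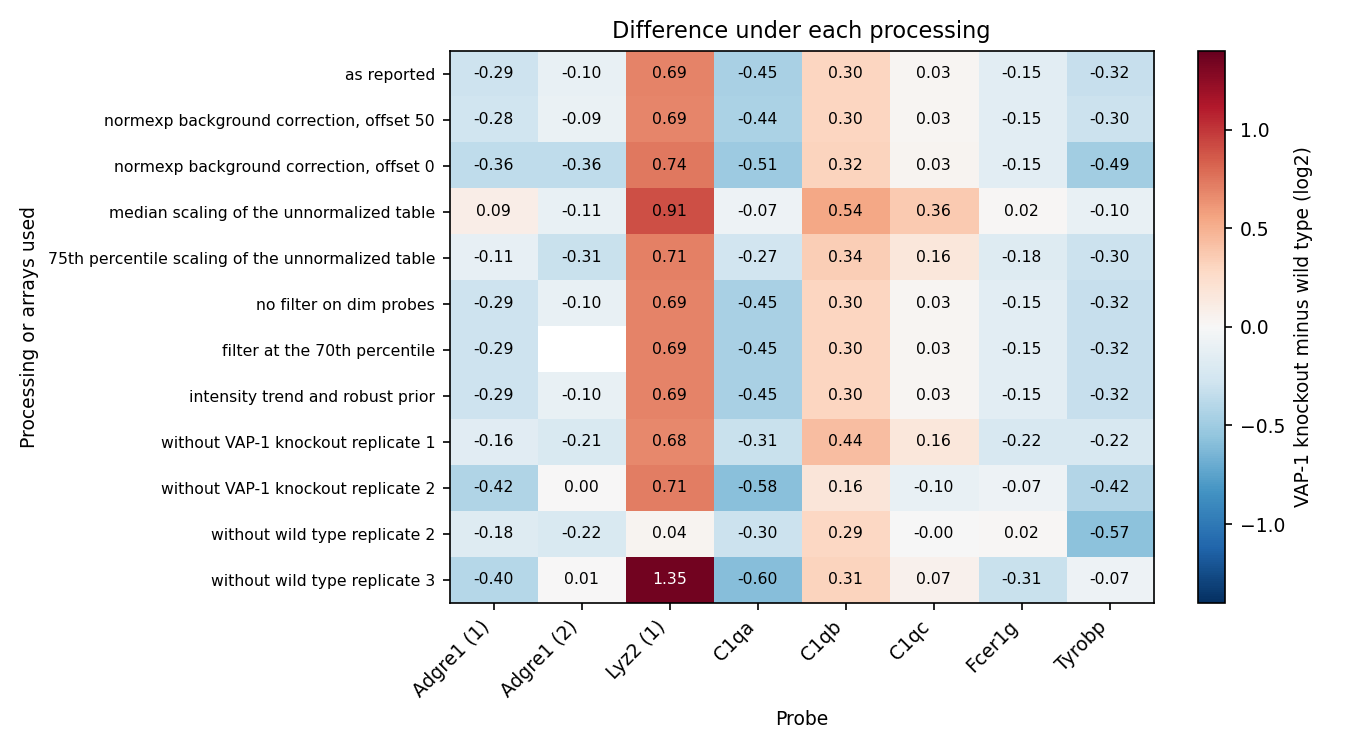
Each cell gives the log2 difference, VAP-1 knockout minus wild type, of a tested member probe (columns) under a processing alternative or with an array left out (rows), and the blank cell is a probe below the stricter filter. C1qa and Tyrobp are below 0 and C1qb and Lyz2 above 0 in every row, while Adgre1, C1qc and Fcer1g change sign in some rows.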

How the data were processed

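The authors deposited an unnormalized table of probe intensity per array (linear scale, Illumina bead arrays) and a processed table of probe intensity. Per the labels' protocols, 100 ng of total RNA per tumour was amplified and biotinylated (TotalPrep kit, in vitro transcription for 14 h). The scanner software, array batches and background handling are not given in the sources used for this report. All 46632 processed rows equalled a row of the quantile-normalized unnormalized table, which left 11 unnormalized rows out. Symbols were taken from GEO's platform annotation: 29976 probes had 1 symbol, 10 several and 16646 none. Positions and upstream sequences came from RefSeq (GRCm38.p6).

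Log2 of the processed values was fitted with limma 3.58.1 in R 4.3.3 (lmFit, eBayes, two-sided, Benjamini-Hochberg over 27979 probes, threshold 0.05). Uncorrected background compresses differences of dim probes. With 2 residual degrees of freedom, 4 arrays limit precision, and an exact permutation test could not go below 0.333. On simulated data of 27979 probes with 200 changed, the adjusted threshold recovered 0.65% of 2-fold and 72.7% of 4-fold changes. There 5.05% of unchanged probes had an unadjusted limma p under 0.05, a share set by the simulation. It drew the errors of each probe independently, without shifts that the probes of an array share. The 16.3% of all probes on the real arrays therefore cannot be read against it as a share of changed probes. Recovery depends on the share of changed probes, so the recovery rates need not hold for the real arrays. The alternatives were normexp background correction (offsets 50 and 0), median and 75th percentile scaling of the unnormalized table, no filter, a filter at the 70th percentile, trend and robust moderation, and leaving out each array. The members and lists were chosen with earlier results of these data known. Named genes are all members, Aoc3, and up to 4 per list of smallest unadjusted p under 0.05 without overlap. Genes outside that rule are identified where named.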

Additional observations from a re-analysis of the deposited data

How the results depend on the processing

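No paired analysis was possible because the groups share only replicate number 2. The member probes called numbered 0 under every alternative except without wild-type replicate 3, where 1 (Lyz2) had an adjusted p under 0.05, a range of 0 to 1 over the arrays left out. Probes called in all were 0 under both background corrections, both scalings and both filters, 4 with trend and robust moderation, and 0 to 2082 with an array left out (2082 without wild-type replicate 2, 1193 without wild-type replicate 3, 0 without either knockout array). With a wild-type array out, 1 wild-type array remains and the closer knockout pair alone supplies the spread, with the reverse when a knockout array is out, so these counts are not comparable with the others. Under median scaling the median difference was 0.055 over the member probes, beside 0.062 over all tested probes, and 0.36 over the C1q probes, the first Adgre1 probe differed by 0.092 and Fcer1g by 0.018. With an array left out, the second Adgre1 probe ranged from -0.22 to 0.0095, C1qc from -0.10 to 0.16 and Fcer1g from -0.31 to 0.019. The brighter Aoc3 probe ranged from -0.83 to 0.047. The causes were not tested. Scaling by the 75th percentile moved the median over all tested probes to -0.14, against -0.02 as reported. The direction of C1qa, C1qb, Tyrobp and Lyz2 held under both background corrections and both scalings. The filters and the trend and robust moderation use the same values, so they cannot change a difference. For C1qa, C1qb and Lyz2, without overlap in the processed values, leaving out an array cannot reverse the sign. For Tyrobp it could, and the direction held. Over all 11 alternatives C1qa ranged from -0.60 to -0.07 and C1qb from 0.16 to 0.54. Tyrobp ranged from -0.57 to -0.07 and Lyz2 from 0.04 to 1.35. Probes near the filter level (the second Adgre1 probe, Itgam and 2 Lyz2 probes) carry little signal over background, which limits what they can show.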

Other observations

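The difference between the C1q probes within an array does not depend on a scaling of the whole array by a constant. Log2 C1qb minus log2 C1qa was 1.74 and 1.74 in the VAP-1 knockout tumours, against 0.83 and 1.15 in the wild-type tumours. Log2 C1qc minus log2 C1qa was 0.68 and 0.67 in the knockout tumours, against 0.01 and 0.38 in the wild-type tumours. Log2 C1qb minus log2 C1qc was 1.06 and 1.07 in the knockout tumours, against 0.82 and 0.77 in the wild-type tumours. Such a difference does not say which chain was more abundant, since the probes differ in how well they bind, and only its change between arrays is read. Each difference was higher on both knockout arrays than on both wild-type arrays, and the differences share chains and are not independent. Among all tested probes read singly, 49.2% did not overlap, and the share for such differences was not computed. The shift for C1qb against C1qa was 0.75 in the processed values, 0.74 and 0.83 after the background corrections, and 0.61 in the unnormalized values. These differences were chosen after the values were seen and were not tested. Each chain was read by 1 probe, so a change of the transcript and a property of the probe cannot be told apart.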
